A study of Homo sapiens with 24 samples.

Results

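The deposited arrays were searched for 41 genes of homologous recombination, DNA end resection and dissolution, the Fanconi crosslink pathway, mismatch repair and the DNA damage checkpoint, listed by symbol. Of these 41, 37 were measured and 4 were not analysed here. The measured genes are 10 of 11 for homologous recombination, 7 of 8 for end resection and dissolution, 9 of 11 for the Fanconi pathway, 5 of 5 for mismatch repair and 6 of 6 for the checkpoint, out of 18239 genes tested. Each gene is represented by its brightest probe set, the one with the highest mean over all arrays. Values are log2 signals, and a change of 1 on this scale is a doubling.

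The cells are HCT116, an established human colon cancer line, and the series asks how estrogen receptor beta (ESR2) alters the response of such cells to hypoxia. ESR2 cells had been infected with a lentivirus coding for HaloTag fused to ESR2, with GFP and puromycin resistance, and were a selected population in which most cells expressed GFP. Parental cells were untransduced, and no vector control is given in the sources used here. ESR2 and parental cells were each studied in hypoxia, in an incubator filled with a mix of CO2 and nitrogen for a time not given in the sources used here, and in normoxia. Each of these 4 conditions was sampled with 10 nM 17β-estradiol, in medium free of phenol red with stripped serum, and without it, in a medium the labels do not describe. The 8 groups hold 3 arrays each. The labels do not say that these came from separate cultures, so p-values measure the spread between samples, which may be technical.

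Broken chromosomes are repaired by homologous recombination mainly in S and G2 phase, when a sister chromatid can serve as template. Nucleases trim the broken ends, BRCA1, PALB2 and their partners prepare the trimmed strand for pairing with the template, and the BLM helicase complex takes the joined molecules apart. The Fanconi proteins unhook crosslinked strands, mismatch repair corrects copying errors, and the kinases ATM and ATR halt the cell cycle while damage is present. In several cancer lines hypoxia is known to lower recombination genes, and HCT116 is known to be deficient in mismatch repair.

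The signal of ESR2 was 4.51 ± 0.44 in normoxic ESR2 cells and 3.47 ± 0.11 in normoxic parental cells (SD, n = 3 each), with adjusted p = 6.43e-06 in limma. In hypoxia it was 4.07 ± 0.11 in ESR2 cells and 3.43 ± 0.11 in parental cells (adjusted p = 0.000411), and the change with hypoxia in ESR2 cells was -0.44 (adjusted p = 0.0124, limma), or -0.48 with estradiol (adjusted p = 0.00401). The 7 colon epithelial markers had array means of 8.43 to 9.44 and the 6 fibroblast markers 3.10 to 3.33, given as brightness alone, since levels of different probe sets cannot be compared. Replicate 2 of parental normoxia without estradiol stood apart, with a lowest within-group correlation of 0.988 and a 3′ minus 5′ difference over control transcripts (the index below) of 4.34, where the other arrays of its group were at 2.60 and 2.65. The 3 arrays of hypoxic ESR2 cells with estradiol had an index of 3.42 to 4.01, against 2.00 to 2.19 in hypoxic ESR2 cells without it.

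**Figure D1:**
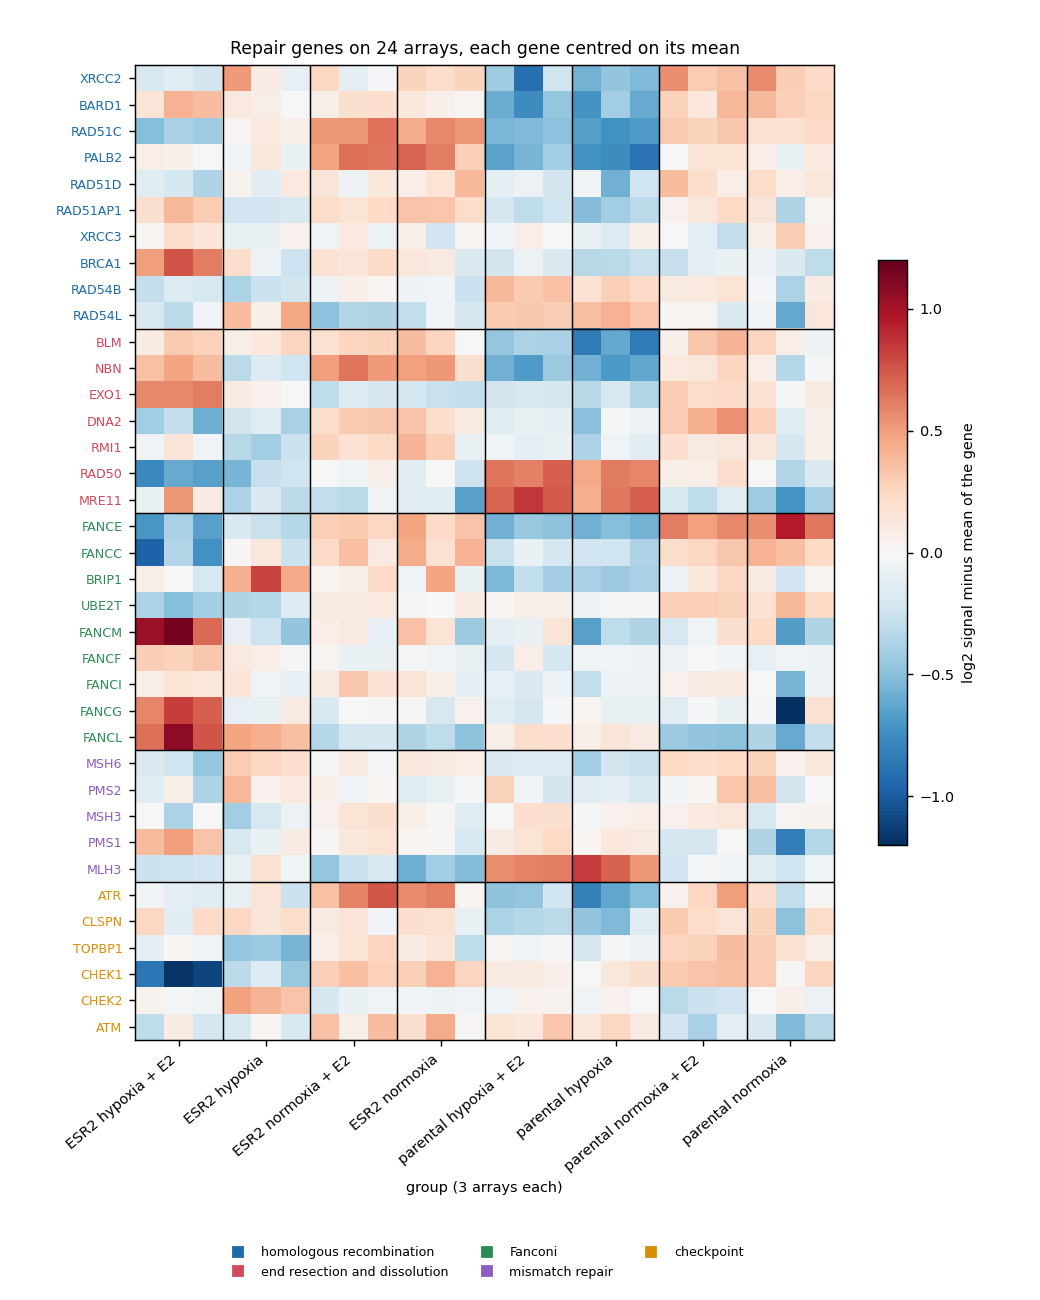
Log2 signal of the 37 measured genes on 24 arrays, each gene centred on its own mean (colour, from blue below to red above). Columns are the 8 groups of 3 arrays, ESR2 cells on the left and E2 marking estradiol, and rows are ordered by pathway and by the change in hypoxic parental cells. Most rows of homologous recombination turn blue in parental hypoxia, while RAD50, MRE11 and MLH3 turn red there.

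In hypoxic parental cells without estradiol, 8 members were higher and 17 lower than in normoxic parental cells. Among all genes 16.4% were higher and 21.2% lower, and the median change was -0.19 for the members and 0.00 for all genes. Homologous recombination had 2 higher and 6 lower of 10, end resection and dissolution 2 higher and 3 lower of 7, and the Fanconi pathway 1 higher and 4 lower of 9. Mismatch repair had 2 higher and 1 lower of 5, and the checkpoint 1 higher and 3 lower of 6. In bulk RNA, fewer cells in a given state and less RNA per cell cannot be told apart.

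BARD1, the partner that stabilises BRCA1 as a ubiquitin ligase, had signals of 5.55, 5.85 and 5.67 in hypoxic parental cells, against 6.66, 6.56 and 6.52 in normoxic ones. It fell by 0.89 ± 0.09 (SE, adjusted p = 1.71e-08, limma), and the groups did not overlap. XRCC2, which works in a complex with RAD51D, had 4.53, 4.63 and 4.57 in hypoxia and 5.67, 5.40 and 5.33 in normoxia, and fell by 0.89 ± 0.14 (adjusted p = 1.55e-05). RAD51C, a subunit shared by several recombination complexes, was tightly measured, at 9.00, 8.95 and 8.99 in hypoxia against 9.84, 9.85 and 9.90 in normoxia. It fell by 0.88 ± 0.06 (adjusted p = 9.08e-12), and no hypoxic array came near a normoxic one. PALB2, a partner that binds BRCA1 at broken ends, fell by 0.83 ± 0.09, from signals of 5.88, 5.85 and 5.72 in hypoxia against 6.68, 6.53 and 6.72 in normoxia. RAD51D and RAD51AP1, a factor that helps strand pairing, fell by 0.43 ± 0.11 and by 0.36 ± 0.09. BRCA1 itself, the scaffold of this pathway, changed by -0.12 ± 0.10 and XRCC3 by -0.19 ± 0.09, and neither passed the test. RAD54L and RAD54B, the motor proteins that move along DNA in strand exchange, went the other way and rose by 0.54 ± 0.13 and 0.33 ± 0.09.

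The end resection genes split. MRE11, the nuclease of the complex that senses and opens broken ends, had 6.01, 6.22 and 6.30 in hypoxic parental cells and 5.16, 4.88 and 5.18 in normoxic ones. The rise of 1.10 ± 0.14 was 2.15-fold (adjusted p = 5.36e-07), and every hypoxic array lay above every normoxic one. RAD50, which tethers the ends within that complex, had 7.88, 8.04 and 8.01 in hypoxia against 7.43, 7.07 and 7.25 in normoxia, a rise of 0.73 ± 0.09 (adjusted p = 4.87e-07). NBN, the subunit of the same complex that brings in ATM, fell by 0.54 ± 0.10. Each of these 3 subunits was called on 1 probe set alone, and NBN, whose other probe sets changed by -0.35 to 0.14, was not called with its probe sets averaged (-0.18). BLM, the helicase that dissolves joined molecules, had 6.03, 6.27 and 6.03 in hypoxia and 7.14, 6.95 and 6.81 in normoxia. It fell by 0.86 ± 0.10 (adjusted p = 2.81e-07), with no overlap of the groups. EXO1, the exonuclease of long-range resection and mismatch removal, fell by 0.38 ± 0.06, while the other long-range nuclease DNA2, at -0.27 ± 0.12, and the BLM partner RMI1, at -0.18 ± 0.11, did not pass.

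The sequences upstream of 6 of these genes are shown because BARD1, XRCC2 and BLM fell together in hypoxic parental cells and, as given below, differed there between the cell types. MRE11 and RAD50 rose, and FANCE had the largest fall of all members. Each run is the 200 bases before the RefSeq start in GRCh38.p14, 5′ to 3′ on the strand of the gene, from promoter tables of RefSeq. Capitals mark a match to an E2F-type word (TTTGGCGC, TTTCGCGC, TTTCCCGC or TTTCCCGG) or to ACGTG, the core that hypoxia-inducible factors bind, on either strand.
BARD1, chr2:214809684-214809883, minus strand: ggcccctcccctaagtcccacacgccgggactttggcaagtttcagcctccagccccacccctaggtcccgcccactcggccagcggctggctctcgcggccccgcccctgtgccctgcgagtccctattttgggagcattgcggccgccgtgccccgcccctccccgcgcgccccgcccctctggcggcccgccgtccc
XRCC2, chr7:152676142-152676341, minus strand: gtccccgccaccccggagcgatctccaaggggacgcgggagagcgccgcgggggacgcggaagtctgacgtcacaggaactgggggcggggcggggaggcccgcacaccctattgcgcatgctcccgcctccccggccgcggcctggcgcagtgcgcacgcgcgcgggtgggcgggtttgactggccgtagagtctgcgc
BLM, chr15:90717146-90717345, plus strand: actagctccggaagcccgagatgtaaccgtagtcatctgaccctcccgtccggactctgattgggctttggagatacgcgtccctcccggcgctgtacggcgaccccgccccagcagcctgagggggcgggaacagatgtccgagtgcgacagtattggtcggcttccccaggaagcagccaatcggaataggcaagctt
FANCE, chr6:35452138-35452337, plus strand: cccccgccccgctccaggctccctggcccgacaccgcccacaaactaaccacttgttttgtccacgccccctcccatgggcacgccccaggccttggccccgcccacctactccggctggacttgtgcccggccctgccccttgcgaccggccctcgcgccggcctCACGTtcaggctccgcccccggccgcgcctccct
MRE11, chr11:94493845-94494044, minus strand: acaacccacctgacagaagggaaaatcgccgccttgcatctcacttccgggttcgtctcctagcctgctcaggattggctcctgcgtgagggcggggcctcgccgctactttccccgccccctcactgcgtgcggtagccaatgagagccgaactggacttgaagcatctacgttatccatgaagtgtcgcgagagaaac
RAD50, chr5:132556777-132556976, plus strand: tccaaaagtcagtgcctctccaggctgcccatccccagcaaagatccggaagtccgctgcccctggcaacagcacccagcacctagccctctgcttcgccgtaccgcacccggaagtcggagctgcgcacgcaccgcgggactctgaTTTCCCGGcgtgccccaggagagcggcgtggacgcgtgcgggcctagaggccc

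In those 200 bases BARD1, XRCC2, BLM and MRE11 held none of these words. RAD50 held TTTCCCGG and FANCE held ACGTG on the opposite strand. The counts that follow cover the 250 bases before each start, in 47 windows of the 33 genes in the table. E2F-type words were in 6 of 47, those of UBE2T, PMS1, ATR, MSH3, RAD50 and FANCC, against 3.55% of all 35116 windows. ACGTG was in 9 of 47, against 18.5% of all windows. The cell cycle word called CHR, searched as TTTGAA and, in its variant form, as TTCGAA, was in 4 of 47, against 14.3%, and the consensus estrogen response element was in 0 of 47, against 0.0399%. A match describes letters alone, and no match says nothing about the factor.

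Among the Fanconi genes FANCE, a subunit of the ubiquitin ligase core, had 5.61, 5.67 and 5.62 in hypoxic parental cells, against 6.75, 7.14 and 6.82 in normoxic ones. It fell by 1.27 ± 0.09, or 2.41-fold (adjusted p = 5.19e-11). The core subunit FANCC fell by 0.62 ± 0.12, the helicase BRIP1 by 0.37 ± 0.13 and UBE2T, the enzyme that supplies ubiquitin, by 0.29 ± 0.07. FANCL, the catalytic subunit of the same ligase, had 7.26, 7.33 and 7.29 in hypoxia and 6.83, 6.58 and 6.91 in normoxia, and rose by 0.52 ± 0.09 (adjusted p = 4.66e-05). Subunits of the ubiquitin ligase were thus called in both directions. FANCF, FANCG, FANCI and FANCM had changes of -0.17 to 0.30 and did not pass.

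In mismatch repair MLH3, a partner of the endonuclease complex with a main role in meiosis, had 6.61, 6.48 and 6.29 in hypoxic parental cells and 5.64, 5.53 and 5.71 in normoxic ones. It rose by 0.83 ± 0.09 (adjusted p = 4.37e-08), with hypoxic arrays all above. PMS1 rose by 0.60 ± 0.11, and MSH6, which recognises single mispaired bases, fell by 0.45 ± 0.07 (adjusted p = 1.53e-05). MSH3, which recognises larger loops, changed by 0.07 ± 0.10. PMS2 was dim, with group means of 2.59 to 2.92 where the array medians were near 4.1, and has near-identical copies in the genome, so its values are uncertain.

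Of the checkpoint genes ATM, the kinase that answers double-strand breaks, had 5.02, 5.14 and 4.99 in hypoxic parental cells and 4.71, 4.35 and 4.55 in normoxic ones, a rise of 0.51 ± 0.12 (adjusted p = 0.00104). ATR, the kinase that answers stalled forks, had 3.83, 4.02 and 4.14 against 4.85, 4.35 and 4.66, a fall of 0.62 ± 0.15 (adjusted p = 0.00182). These hypoxic signals were dim, near the medians of their arrays at 4.11 to 4.13, and CLSPN was dim too, with a mean of 4.40 over all arrays. TOPBP1, which activates ATR, fell by 0.28 ± 0.09 and CLSPN, which brings CHEK1 to it, by 0.37 ± 0.15. The downstream kinases CHEK1, at -0.08 ± 0.09, and CHEK2, at 0.00 ± 0.06, did not pass. The call of TOPBP1 ended without replicate 1 of either group (-0.22 each), that of CLSPN without replicates 1 or 3 of normoxia (-0.24 and -0.26) or 1 or 2 of hypoxia (-0.33 and -0.30), and that of BRIP1 without replicates 1 or 3 of normoxia (-0.30 and -0.34) or any hypoxic array (-0.35 to -0.38). Without replicate 2 of parental normoxia, which stood apart, RAD54L rose by 0.32, RAD54B by 0.19 and CLSPN fell by 0.62, and without replicate 2 of hypoxia RAD51D fell by 0.29. With the 3′ minus 5′ index as a covariate RAD54L (0.29), RAD54B (0.21) and TOPBP1 (-0.26) were no longer called.

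**Figure D2:**
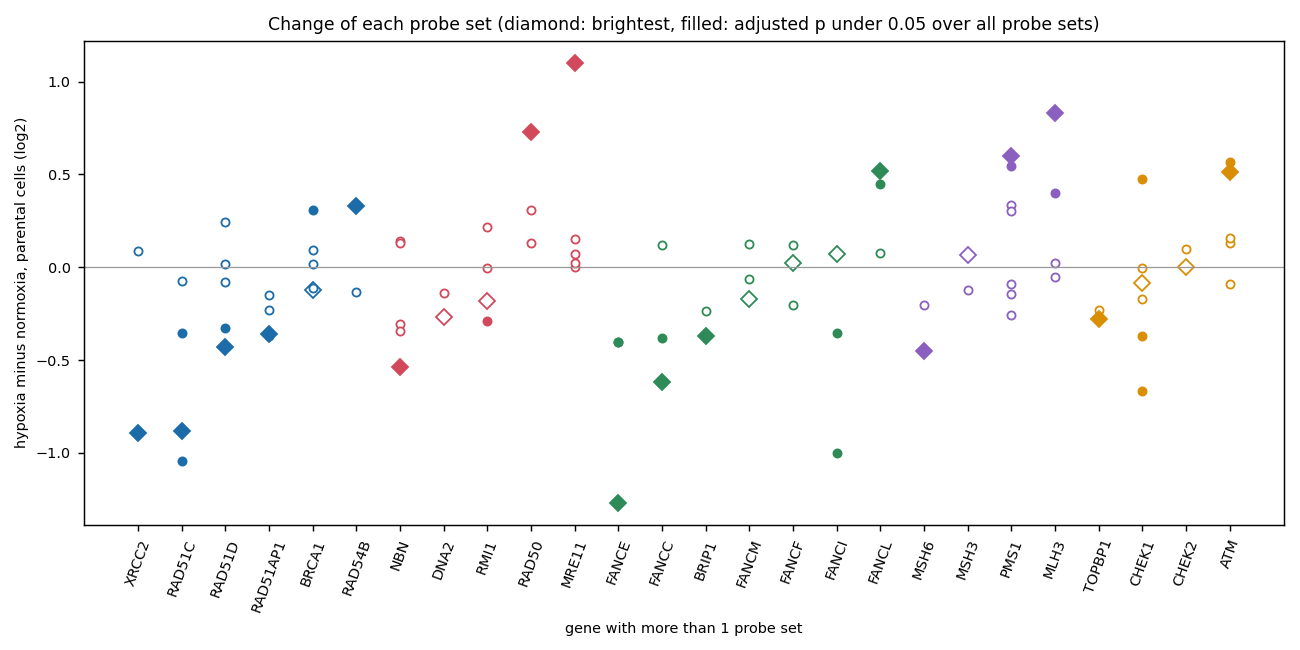
Change in hypoxic parental cells of every probe set (log2, hypoxia minus normoxia) for the 26 genes with more than 1, coloured by pathway. Diamonds are the brightest probe set, used in the text, circles the others, and filled symbols had an adjusted p under 0.05 over all probe sets. The rises of MRE11 and RAD50 were called on the brightest probe set alone, while all 3 probe sets of FANCE fell.

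Of the 25 members called in hypoxic parental cells, 17 had more than 1 probe set. For 9 of these a further probe set was called the same way, and for 8 the brightest alone was, by p-values adjusted over all probe sets. The rise of MRE11 was called on 1 of 5 probe sets, the others changing by -0.00 to 0.15, and that of RAD50 on 1 of 3, the others changing by 0.13 and 0.31. The fall of XRCC2 was on 1 of 2, with 0.09 on the other. The rise of RAD54B was also on 1 of 2, with -0.13 on the other, and its call ended with probe sets averaged. FANCE was called lower on 3 of 3 and RAD51C on 3 of 4. PMS1 was called higher on 2 of 7, those other than the brightest changing by -0.26 to 0.54, and its call ended with probe sets averaged. Among members not called, FANCI changed by 0.07 on the brightest probe set but fell by 1.00 and 0.35 on the others, and CHEK1 ranged from -0.66 to 0.47 over 6. BRCA1 rose by 0.31 on 1 of its other probe sets and RMI1 fell by 0.29 on 1 of its own. BARD1, BLM, PALB2, ATR, EXO1 and RAD54L have 1 probe set each. Different probe sets can read different transcript ends, and which end changed was not tested.

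In hypoxic ESR2 cells without estradiol, 6 members were higher and 13 lower than in normoxic ESR2 cells, against 14.4% higher and 18.2% lower of all genes. The median change was -0.08 for the members and -0.06 for all genes. FANCL rose by 0.81 ± 0.09, MLH3 by 0.53 ± 0.09 and RAD54L by 0.48 ± 0.13. NBN fell by 0.64 ± 0.10, CHEK1 by 0.63 ± 0.09, FANCE by 0.62 ± 0.09, RMI1 by 0.54 ± 0.11, PALB2 by 0.53 ± 0.09, RAD51AP1 by 0.51 ± 0.09 and RAD51C by 0.45 ± 0.06. CHEK2 had 7.80, 7.72 and 7.66 in hypoxia against 7.29, 7.25 and 7.27 in normoxia and rose by 0.46 ± 0.06 (adjusted p = 3.44e-06). Single calls ended when an array was left out: that of ATM without replicates 1 or 2 of normoxia (-0.35 and -0.22) or 1 or 3 of hypoxia (-0.30 each), that of ATR without the same arrays (-0.38, -0.36, -0.45 and -0.37), that of BRIP1 without replicates 1 or 3 of normoxia or 2 of hypoxia (0.36, 0.35 and 0.33), and that of FANCC without replicates 1 or 3 of normoxia or 3 of hypoxia (-0.34, -0.35 and -0.28).

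The interaction, the hypoxia change of ESR2 cells minus that of parental cells, was higher for 9 members and lower for 6. Among all genes 16.4% were higher and 14.3% lower, with a median of -0.04 against 0.07 for the members. For BARD1, XRCC2, BLM, EXO1, MSH6 and BRIP1 the fall of parental cells was smaller or absent in ESR2 cells. BARD1 had 6.39, 6.34 and 6.27 in hypoxic ESR2 cells and 6.40, 6.33 and 6.30 in normoxic ones, a change of -0.01 ± 0.09, and its interaction was 0.88 ± 0.13 (adjusted p = 9.54e-06). BLM changed by -0.06 ± 0.10 in ESR2 cells (interaction 0.80 ± 0.15) and XRCC2 by -0.08 ± 0.14 (interaction 0.81 ± 0.20). EXO1 had 7.74, 7.70 and 7.64 in hypoxic ESR2 cells and 7.43, 7.38 and 7.35 in normoxic ones, a rise of 0.31 ± 0.06 where parental cells fell. Its interaction was 0.69 ± 0.09 (adjusted p = 1.82e-06). BRIP1 rose by 0.45 ± 0.13 in ESR2 cells (interaction 0.82 ± 0.18), subject to the arrays named above. FANCE and RAD51C fell in both cell types, less in ESR2 cells, with interactions of 0.65 ± 0.13 and 0.44 ± 0.08. MSH6 (0.60 ± 0.10) and CHEK2 (0.45 ± 0.09) completed the 9 higher ones.

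MRE11, RAD50, ATM, PMS1 and RAD54B rose in hypoxic parental cells and had a called negative interaction. MLH3, RAD54L and FANCL also rose there, and their interactions (-0.30, -0.06 and 0.29) did not pass. The parental change is subtracted in the interaction, so a rise there lowers it and a fall raises it. The direction is thus partly built in for members picked by their parental change. MRE11 had 5.21, 5.41 and 5.27 in hypoxic ESR2 cells and 5.44, 5.45 and 4.93 in normoxic ones, which overlapped. Its change was 0.03 ± 0.14 and its interaction -1.08 ± 0.20 (adjusted p = 0.000163). RAD50 changed by -0.23 ± 0.09 in ESR2 cells, which did not pass (adjusted p = 0.0514), and had an interaction of -0.96 ± 0.13. ATM fell in ESR2 cells by 0.33 ± 0.12 and rose in parental cells, with an interaction of -0.85 ± 0.17 (adjusted p = 0.000391). PMS1 (-0.61 ± 0.15), RAD54B (-0.50 ± 0.13) and CHEK1 (-0.55 ± 0.12) completed the 6 lower ones. Of the 12 members with a called interaction and more than 1 probe set, 4 were called the same way on a further one (RAD50, RAD51C, CHEK1 and CHEK2) and 8 on the brightest alone. The other probe sets of MRE11 had interactions of -0.11 to 0.11, that of XRCC2 0.05, that of BRIP1 0.10 and that of RAD54B 0.21. With probe sets averaged, RAD54B (-0.15) and PMS1 (-0.30) were no longer called. Calls in hypoxia were shared in direction by 12 members in both cell types, 63.2% of those in ESR2 cells and 48% of those in parental cells, and 3 were called in opposite directions, ATM, BRIP1 and EXO1. Over all genes the shares called the same way were 47.7% and 41.4%, and those called in opposite directions were 12.5% and 10.9%.

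**Figure D3:**
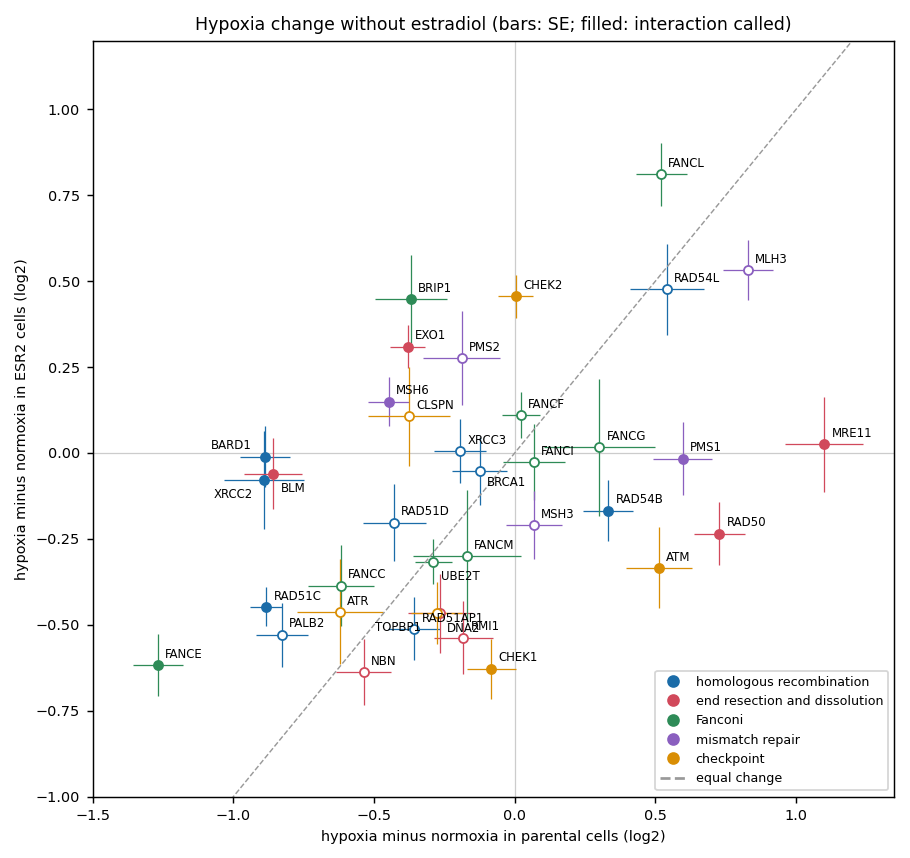
Change with hypoxia (log2, hypoxia minus normoxia) without estradiol of each measured gene in ESR2 cells (vertical) and in parental cells (horizontal), with SE bars, n = 3 arrays per group. Filled symbols have a called interaction and the dashed line marks equal change. BARD1, XRCC2 and BLM lie near -0.9 horizontally and near 0 vertically, and MRE11, RAD50 and PMS1 lie to the right near or below 0.

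**Figure D4:**
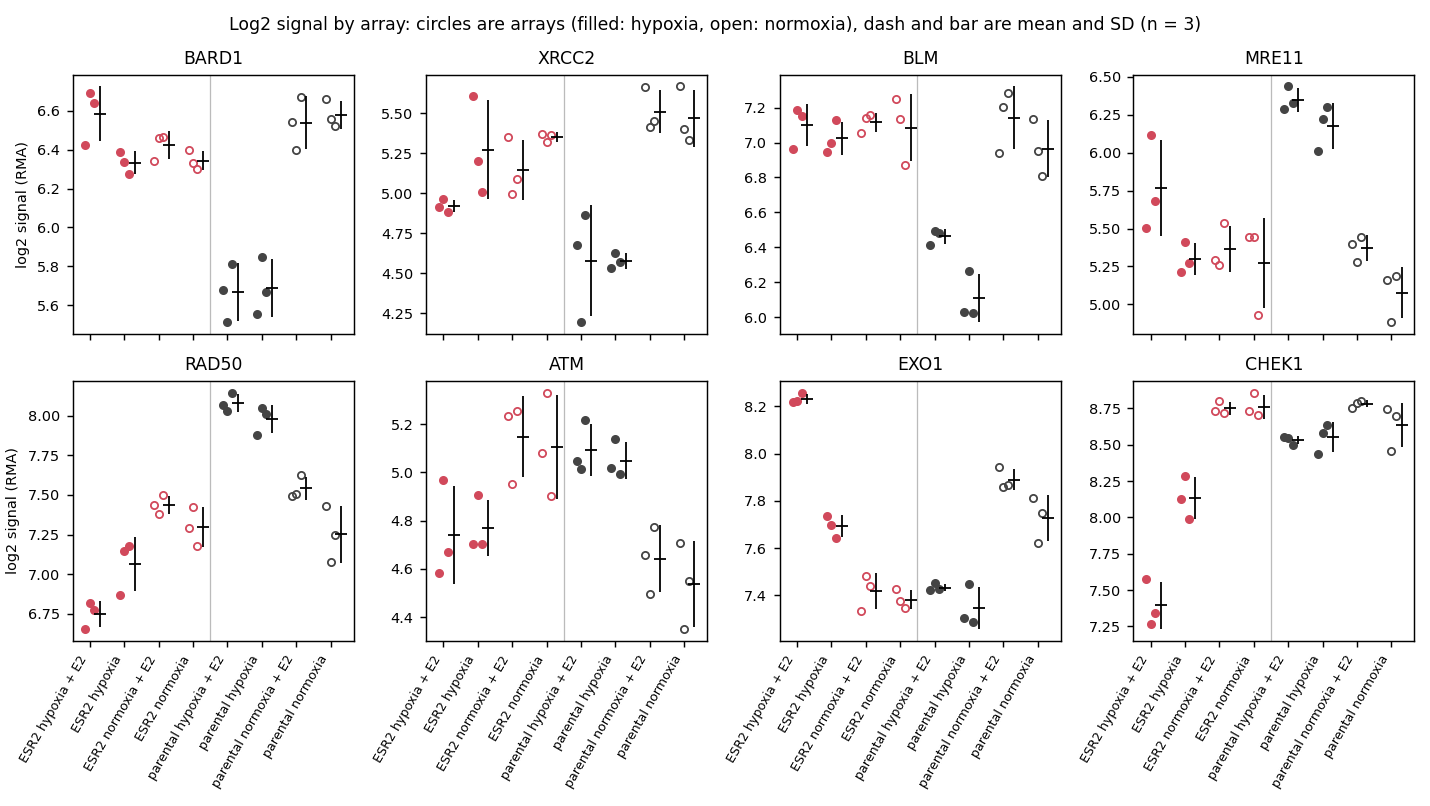
Log2 signal of 8 genes on each array, with the mean and SD of each group (n = 3). ESR2 cells are on the left of each panel in red and parental cells on the right in grey, with hypoxia as filled and normoxia as open circles. BARD1, XRCC2 and BLM are lowest in hypoxic parental cells, where MRE11 and RAD50 are highest.

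In hypoxia, ESR2 cells had 16 members higher and 8 lower than parental cells, against 20.4% higher and 20% lower of all genes. The median difference was 0.20 for the members and -0.06 for all genes. In normoxia 6 were higher and 4 lower, against 9.76% and 8.86% of all genes. The hypoxic difference was 0.97 ± 0.13 for BRIP1, 0.92 ± 0.10 for BLM, 0.79 ± 0.09 for PALB2, 0.76 ± 0.06 for RAD51C, 0.70 ± 0.14 for XRCC2 and 0.64 ± 0.09 for BARD1. It was -0.91 ± 0.09 for RAD50, -0.88 ± 0.14 for MRE11, -0.67 ± 0.09 for MLH3 and -0.51 ± 0.09 for RAD54B. On other probe sets it was 0.30 for RAD54B, -0.05 for XRCC2, 0.26 for BRIP1 and -0.10 to 0.08 for MRE11. For RAD50 it was -0.36 to -0.15 on the others, while RAD51C and MLH3 were called the same way on a further probe set. NBN, higher by 0.39, was at -0.95 to 0.58 on its other probe sets, 2 of them called lower. MSH3, at -0.26, was called higher on its other probe set (0.41). By pathway, homologous recombination had 6 higher and 1 lower of 10, end resection and dissolution 3 and 2 of 7, the Fanconi pathway 3 and 1 of 9, mismatch repair 1 and 2 of 5 and the checkpoint 3 and 2 of 6. In normoxia ATM was higher by 0.57 ± 0.12, NBN and PALB2 by 0.49 ± 0.10 and 0.49 ± 0.09, PMS1 by 0.47 ± 0.11, RAD51AP1 by 0.36 ± 0.09 and RAD51C by 0.32 ± 0.06. MLH3, FANCE, EXO1 and UBE2T were lower in ESR2 cells, with differences of -0.37, -0.37, -0.35 and -0.24. With probe sets averaged, the normoxic calls of ATM, NBN, PMS1, MLH3 and RAD51AP1 ended. The other probe sets of ATM were at -0.24 to 0.18 there.

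Several of these calls ended when a single array was left out. In hypoxia the call of BRCA1 (0.27) ended without replicate 1 of ESR2 hypoxia (0.15), 2 of it (0.29), or 1 or 2 of parental hypoxia (0.26 and 0.27). That of RAD51D (0.30) ended without replicate 2 (0.15) or 3 (0.32) of parental hypoxia or 1 (0.28) or 3 (0.24) of ESR2 hypoxia, and that of FANCE (0.29) without replicate 1 of ESR2 hypoxia (0.25). That of MSH3 (-0.26) ended without any parental hypoxic array (-0.29, -0.25 and -0.24) or without replicates 1 or 2 of ESR2 hypoxia (-0.17 and -0.28). In normoxia RAD51AP1 and UBE2T were no longer called without replicate 2 of parental normoxia (0.21 and -0.17), UBE2T also without replicate 1 of ESR2 normoxia (-0.21), and PMS1 was at 0.31 without replicate 2 of parental normoxia.

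**Figure D5:**
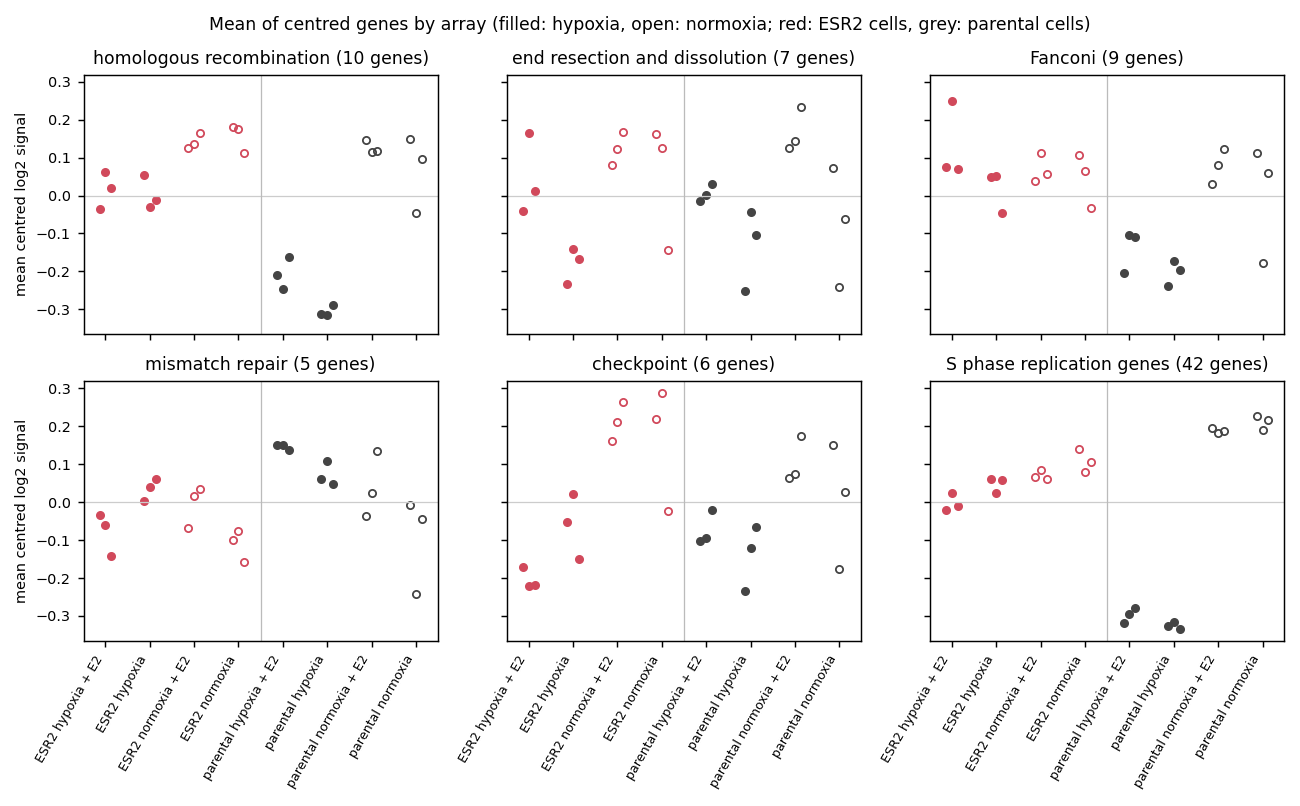
Mean over the genes of each pathway, and over 42 S phase replication genes, of the log2 signal centred on each gene's mean, per array. ESR2 cells are on the left and parental cells on the right, with hypoxia filled and normoxia open. Homologous recombination and S phase genes are lowest in hypoxic parental cells, with and without estradiol.

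With estradiol in both arms the comparisons of parental cells were close to those without it. Hypoxic parental cells had 8 members higher and 19 lower, against 16.1% and 18.7% of all genes, and 24 members were called the same way as without estradiol, 96% of the 25 called without it and 88.9% of the 27 called with it, where over all genes these shares were 80.3% and 86.6%. FANCE fell by 1.07 ± 0.09, XRCC2 by 0.93 ± 0.14, BARD1 by 0.87 ± 0.09 and RAD51C by 0.82 ± 0.06, and MRE11 rose by 0.98 ± 0.14. Hypoxic ESR2 cells with estradiol had 8 higher and 14 lower, against 29.6% and 22.6% of all genes, and the interaction was higher for 12 and lower for 8, against 20.6% and 18.1%. Hypoxic ESR2 arrays with estradiol also had a 3′ minus 5′ index of 3.42 to 4.01, against 2.34 to 3.03 in normoxic ESR2 cells with estradiol, and leukocyte marker means of 4.29 to 4.36, against 3.76 to 3.78, and the part of either was not tested. With the index as a covariate the hypoxia calls of RAD51D, RAD54B, MSH3 and ATM in these cells ended. EXO1 had the largest interaction with estradiol, 1.27 ± 0.09, and RAD50 the most negative, -1.23 ± 0.13. In normoxia with estradiol ESR2 cells had 5 members higher and 2 lower than parental cells, against 8.45% and 5.22%, and in hypoxia with estradiol 13 higher and 11 lower, against 27.8% and 19.8%. Of the 2 lower ones in normoxia, EXO1 and FANCE, 1 was left without any single array of the 2 groups.

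Estradiol was tested in each cell type at each oxygen level. In normoxic parental cells 0 members were called by limma (0% of all genes higher and 0.011% lower), with 11 of 37 at an unadjusted p under 0.05. In hypoxic parental cells it was 0 (0.00548% and 0.011%), with 4 of 37 at that level, and in normoxic ESR2 cells 0 (0% and 0%), with 2 of 37. The hypoxia-by-estradiol interaction of parental cells also had 0 (0% and 0.00548%), with 2 of 37. The largest change in these settings was 0.42, for FANCM in hypoxic parental cells. The count in normoxic parental cells was 4 with array weights or without replicate 1 of parental normoxia without estradiol. At the unadjusted level the share over all genes was not counted, so those counts are not a result about the members. The normoxic parental reference without estradiol also holds replicate 2, which stood apart with a 3′ minus 5′ index of 4.34.

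In hypoxic ESR2 cells, by contrast, 13 members were higher and 12 lower with estradiol than without it, against 35.4% and 21.6% of all genes, and its interaction with hypoxia was higher for 7 and lower for 8, against 25.4% and 18.4%. FANCM, the translocase that anchors the Fanconi core, had 5.58, 5.69 and 5.23 with estradiol and 4.44, 4.30 and 4.07 without, a rise of 1.23 ± 0.19 (adjusted p = 1.17e-05). CHEK1 had 7.58, 7.27 and 7.34 with estradiol against 8.13, 8.28 and 7.99 without, a fall of 0.74 ± 0.09 (adjusted p = 1.95e-07), with no overlap. BRCA1 rose by 0.65 ± 0.10, FANCG by 0.74 ± 0.20 and EXO1 by 0.54 ± 0.06, and RAD51C and FANCC fell by 0.51 ± 0.06 and 0.65 ± 0.12. The arrays with estradiol differed from those without in the 3′ minus 5′ index, given above, and in leukocyte markers, whose array means were 4.29 to 4.36 and 3.70 to 3.82 over 5 of 6 genes, CD68 being the highest, and the part of either in these results was not tested. With the index as a covariate 7 members were lower, and the calls of BARD1, BRIP1, FANCF, MLH3, PMS2, RAD50, RAD54L and XRCC2 ended. With probe sets averaged the calls of RAD51C, XRCC2, MRE11, RMI1, FANCF, MLH3 and PMS1 were not kept. Without replicate 2 of the estradiol group MRE11 was at 0.29, and the calls of BARD1, MLH3, MRE11, PMS2 and XRCC2 each ended without some single array (XRCC2 at -0.18 without replicate 1 of hypoxic ESR2 cells, MLH3 at -0.19 without replicate 2 of them).

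Other genes of these pathways were taken from lists chosen with earlier results of these data in view. Over all genes 16.4% were higher and 21.2% lower in hypoxic parental cells, 14.4% and 18.2% in hypoxic ESR2 cells, and 16.4% and 14.3% for the interaction. Of 38 further recombination, crosslink and mismatch genes 4 were higher and 19 lower in hypoxic parental cells and 9 and 11 in hypoxic ESR2 cells, and the interaction was higher for 15 and lower for 3. DCLRE1B, a nuclease of crosslink repair and telomeres, fell by 1.71 ± 0.08 in hypoxic parental cells and RMI2, a BLM partner, rose by 1.05 ± 0.07. Further damage checkpoint genes, 23 in number, were 4 higher and 12 lower in hypoxic parental cells and 6 and 5 in hypoxic ESR2 cells, with 11 higher and 3 lower for the interaction. The phosphatase CDC25A had an interaction of 2.01 ± 0.11, from a rise of 0.43 ± 0.08 in ESR2 cells and a fall of 1.58 ± 0.08 in parental cells. Of 14 end joining genes 3 were higher and 4 lower in hypoxic parental cells and 0 and 6 in hypoxic ESR2 cells, and the interaction was higher for 2 and lower for 4. CYREN, an end joining regulator, had the smallest p of them, falling by 2.56 ± 0.10 in parental cells and by 0.42 ± 0.10 in ESR2 cells. Of 35 base and nucleotide excision repair genes 5 were higher and 18 lower in hypoxic parental cells and 9 and 11 in hypoxic ESR2 cells, with 14 higher and 4 lower for the interaction.

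S phase replication genes, which were set beside the members because recombination is tied to that phase, were 0 higher and 32 lower of 42 in hypoxic parental cells, with a median of -0.43, against 16.4% and 21.2% of all genes. In hypoxic ESR2 cells 5 were higher and 14 lower (median -0.06), and the interaction was higher for 25 and lower for 1, against 16.4% and 14.3% of all genes. Their centred mean lay between -0.33 and -0.32 on the arrays of hypoxic parental cells and between 0.19 and 0.23 in normoxic parental cells, and between 0.02 and 0.06 in hypoxic ESR2 cells and 0.08 and 0.14 in normoxic ones. The part of this shift in the members' changes was not tested.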

How the data were processed

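RNA of 24 HCT116 samples was measured on Affymetrix 3′ arrays. The deposited values are log2 signals per probe set, made by the authors with affy and RMA per the submitters' processing notes, with versions not given in the sources used here. RMA corrects background, equalises the distributions of the arrays and summarises probes, so it removes overall differences between arrays. Each gene was represented by its brightest probe set with a single symbol, giving 18239 genes. All 24 arrays entered a fit of 8 group means in limma 3.58.1 (R 4.3.3), with 16 comparisons and Benjamini-Hochberg adjustment over all genes within each, and a threshold of 0.05. The fit was tested on simulated data. The members and all lists were chosen with earlier results of these data known. Genes named from the lists are those with the smallest p in hypoxic parental cells. Alternatives changed normalization, the filter on dim genes, the probe set rule, the model and the arrays included. The 3 arrays per group limit the precision. Levels of different probe sets were not tested against each other, and marker levels and array medians are given only to describe brightness. Of the listed genes 4 were not analysed here.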

Additional observations from a re-analysis of the deposited data

Results flagged for a closer look

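Without estradiol, the interaction term of the limma fit passed for 15 members, against 16.4% higher and 14.3% lower of all genes. This term is the difference between ESR2 and parental cells in the change with hypoxia. It was 0.88 for BARD1, 0.82 for BRIP1, 0.81 for XRCC2, 0.80 for BLM, 0.69 for EXO1, 0.65 for FANCE, 0.60 for MSH6, 0.45 for CHEK2 and 0.44 for RAD51C. It was -1.08 for MRE11, -0.96 for RAD50, -0.85 for ATM, -0.61 for PMS1, -0.55 for CHEK1 and -0.50 for RAD54B.

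With estradiol the same interaction passed for 20 members, against 20.6% higher and 18.1% lower of all genes. It was 1.27 for EXO1, 1.03 for BARD1, 0.92 for FANCM, 0.81 for FANCG, 0.70 for XRCC2, 0.66 for BLM, 0.62 for CLSPN, 0.59 for NBN, 0.49 for RAD51AP1, 0.45 for FANCL, 0.44 for BRCA1 and 0.42 for FANCF. It was -1.23 for RAD50, -1.11 for CHEK1, -0.86 for ATM, -0.62 for MLH3, -0.57 for MRE11, -0.47 for FANCC, -0.45 for RAD54B and -0.31 for UBE2T. Several of these calls were not stable over the 23 alternatives. That of MRE11 ended under 9 of them (5 single arrays left out, -0.44 to -0.53), that of FANCC under 8 (6 single arrays, -0.32 to -0.46), that of FANCG under 4 single arrays and that of CLSPN under 3. Those of BRCA1 and RAD54B ended with the 3′ minus 5′ index (0.40 and -0.30) and with probe sets averaged, which turned RAD54B to 0.63, and those of NBN and ATM ended with probe sets averaged (0.07 and -0.14).

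In ESR2 cells the change with estradiol differed between hypoxia and normoxia for 15 members, against 25.4% higher and 18.4% lower of all genes. The difference was 1.22 for FANCM, 0.75 for FANCG, 0.61 for RAD51AP1, 0.50 for BRCA1, 0.50 for EXO1, 0.48 for NBN and 0.23 for FANCF. It was -0.73 for CHEK1, -0.59 for BRIP1, -0.56 for RAD51C, -0.53 for FANCC, -0.47 for MLH3, -0.46 for MSH6, -0.45 for RAD50 and -0.35 for CHEK2. The call of FANCF ended under 18 of 23 alternatives and that of FANCG under 7 single arrays left out (0.69 to 0.75). With the 3′ minus 5′ index those of BRCA1 (0.43), BRIP1 (-0.26), RAD50 (-0.27) and MLH3 (-0.37) ended, and that of MSH6 with the index and the replicate block (-0.36). Those of BRCA1, RAD51C and NBN ended with probe sets averaged (0.15, -0.05 and 0.12), and after quantile normalization those of RAD50, FANCC, MLH3 and CHEK2 (-0.27, -0.30, -0.22 and -0.20), that of FANCC also without replicate 1 of hypoxic ESR2 cells with estradiol (-0.39). The hypoxic ESR2 arrays with estradiol, on which these and the preceding values rest, had a 3′ minus 5′ index of 3.42 to 4.01, against 2.00 to 2.19 without estradiol, and its part was not tested.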

How the results depend on the processing

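Of 233 calls of members over the 16 comparisons, 133 held under every alternative run. Calls lost numbered 20 with a further quantile normalization, 2 with arrays centred on medians, 31 with the 3′ minus 5′ index as a covariate and 1 with the replicate block. With probe sets averaged per gene 44 calls were lost and a further 11 changed sign. Leaving out some single array ended 41 calls. The main fit did not pair samples by replicate number. In 0 of 20 pairs of groups did every same-numbered pair correlate above 0.1. In 1 pair, ESR2 normoxia and hypoxia without estradiol, each same-numbered array correlated best (0.07, 0.12 and 0.21). Against a minimum change of 0.2 (treat), members lower with hypoxia in parental cells numbered 11, and hypoxia in ESR2 cells gave 11 (3 higher, 8 lower). With estradiol that setting gave 16 in parental cells (4 higher, 12 lower) and 14 in ESR2 cells (5 higher, 9 lower). ESR2 against parental cells in normoxia gave 5 calls (2 higher) with the mean of probe sets and 4 (2 higher, 2 lower) when only the groups compared were fitted. With estradiol that comparison gave 2 higher with the mean of probe sets, 13 (6 lower) with only those groups, 14 (8 higher, 6 lower) with array weights and 12 (5 lower) without the arrays that stand apart, and 1 to 1 lower when single arrays were left out. The interaction with estradiol had 4 lower with the mean of probe sets, and the hypoxia-by-estradiol interaction of ESR2 cells 13 higher after quantile normalization. Estradiol in normoxic parental cells gave 4 (3 higher, 1 lower) with array weights and 0 to 4 calls (0 to 3 higher, 0 to 1 lower) when single arrays were left out. With the index, members lower with estradiol in hypoxic ESR2 cells numbered 7, and with the replicate block and the index 6, where hypoxia in ESR2 cells with estradiol had 9 lower and ESR2 against parental cells in hypoxia with estradiol 7 lower. The mean of probe sets reversed 11 values: for ESR2 against parental cells in hypoxia NBN (-0.0564) and MSH3 (0.0759), and with estradiol RAD54B (0.58); for hypoxia with estradiol PMS1 in parental cells (-0.0301) and, in ESR2 cells, RAD51D (0.0234), RAD54B (0.56), PMS1 (-0.0151) and ATM (0.0106); for the interaction with estradiol RAD54B (0.63); and for estradiol in hypoxic ESR2 cells XRCC2 (0.0798) and FANCF (-0.0411). The cause was not tested. Dim probe sets such as that of PMS2 lie near background, where signal limits what can be seen.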
